A study of Mus musculus with 2 samples.

Results

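Primed pluripotent mouse cells with many transcripts of 5 very long neural genes were 1508 of 16841 kept cells, or 8.95% (8.53% to 9.40%). They were chosen from their own counts of unique molecular identifiers (UMIs, each standing for 1 captured RNA molecule). A member had under 4 UMIs per 10000 from the naive pluripotency genes Zfp42, Klf2, Esrrb and Nr5a2, and at least 4 UMIs from Pou5f1 and Dnmt3b. It had at least 5 UMIs from Ptprt, Anks1b, Hs3st4, Hdac9 and Ano3, which are called the 5 long genes here. Cells with 2 or more UMIs of Meis2 and Fgf8, with 4 or more of Krt8 and Krt18, or with 2 or more of Mixl1, Mesp1, Lhx1 and Rspo3 were left out. Every condition but that on the 5 long genes was met by 4143 cells, of which the members were 36.4% (34.9% to 37.9%). The other 2635 are called other primed cells below.

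The labels describe 2 mouse samples of the cell line Delmix, with 1 sample per group. One was a culture on day 2 of embryoid body formation, in which the stem cells aggregate and begin to differentiate, and the other was the untreated epiblast stem cell line itself. Cells were dissociated with trypsin and profiled in droplets from the 3' end of their RNA, and the counts lie in 1 pooled matrix whose cell tags carry no sample name. No cell could be given to a group, so embryoid bodies were not compared with epiblast stem cells, and with 1 library no test and no p-value was computed. Intervals are 95% intervals and cover counting error only, since cells of 1 library are not replicates. The labels name no genotype, age or further agent, and the sources used here do not say what limits the line as a model.

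The kept cells, with 1000 genes or more and a mitochondrial share of UMIs up to 10%, were 78.0% of the 21593 called cells and had a median of 6473 UMIs. The members had a median of 7953 UMIs and 3193 genes, against 6433 UMIs and 2660 genes in other primed cells. The median share of mitochondrial UMIs was 3.20% in members and 2.95% in other primed cells, and that of ribosomal protein genes was 19.7% in members and 20.5% in other primed cells. A condition in UMIs per cell favours deep cells, so values are also given below for cells of similar depth. Scrublet called 154 members (10.2%) and 197 other primed cells (7.48%) doublets, and these were left in.

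Mouse pluripotent cells exist in a naive state, like that of the early epiblast, and in a primed state, like that of the epiblast shortly before gastrulation. Primed cells keep the core factor Pou5f1 (Oct4), gain the de novo DNA methyltransferase Dnmt3b and lose naive factors such as Zfp42 (Rex1), Klf2 and Esrrb. Many genes that act at synapses and in axons are unusually long because of their introns, and a polymerase needs hours to transcribe the longest of them. The transcription factor p53 answers DNA damage and other stress by raising genes such as Mdm2, whose protein in turn degrades p53.

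The genes that chose the members are known for adhesion and synapses rather than for pluripotency. Ptprt encodes a receptor tyrosine phosphatase that binds its own kind on neighbouring cells, and Anks1b a scaffold of the postsynaptic density. Hs3st4 encodes an enzyme that adds sulfate to heparan sulfate chains, Hdac9 a class IIa histone deacetylase, and Ano3 a membrane protein of the anoctamin family. In GENCODE vM21 (GRCm38) their spans from start to end were 1139 kb for Ptprt, 1100 kb for Anks1b, 870 kb for Hdac9, 416 kb for Hs3st4 and 296 kb for Ano3. The median span of the genes measured here was 30.1 kb. The promoters of Ptprt and Hs3st4 are shown because each has a single start site in the RefSeq table (GRCm38.p6). They run from 250 bases before to 50 bases after the start, in lower case with CG dinucleotides in capitals. The window of Ptprt lies at chr2:162661098-162661397 on the minus strand, and that of Hs3st4 at chr7:123982578-123982877 on the plus strand.
Ptprt: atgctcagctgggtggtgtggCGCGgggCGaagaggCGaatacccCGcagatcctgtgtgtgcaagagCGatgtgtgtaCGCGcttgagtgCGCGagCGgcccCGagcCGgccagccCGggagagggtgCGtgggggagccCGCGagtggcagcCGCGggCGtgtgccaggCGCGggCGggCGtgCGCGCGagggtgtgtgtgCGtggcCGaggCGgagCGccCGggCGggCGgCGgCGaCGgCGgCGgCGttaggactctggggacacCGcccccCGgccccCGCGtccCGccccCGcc
Hs3st4: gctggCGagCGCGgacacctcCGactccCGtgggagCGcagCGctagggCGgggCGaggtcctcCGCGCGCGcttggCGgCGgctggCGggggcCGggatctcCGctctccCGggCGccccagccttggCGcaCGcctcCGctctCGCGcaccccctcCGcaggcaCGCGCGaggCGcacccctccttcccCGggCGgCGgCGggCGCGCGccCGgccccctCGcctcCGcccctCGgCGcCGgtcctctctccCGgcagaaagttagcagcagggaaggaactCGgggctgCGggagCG
The Ptprt window holds 46 CG dinucleotides and the Hs3st4 window 47, more than 98.4% and 98.6% of the 32851 windows in the table. Both are thus rich in CG, as the promoters of CpG islands are, and neither holds TATAAA on either strand.

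The 5 long genes were unevenly spread within the members. Their summed UMIs per member went from 5 to 96, with a median of 9 and quartiles of 6 and 14. A Ptprt UMI was found in 93.3% of members, and Ptprt gave 38.0% of all UMIs of the 5 genes. Hdac9 was found in 75.8% of members, Anks1b in 74.5%, Ano3 in 72.3% and Hs3st4 in 55.8%. All 5 genes had a UMI in 345 members (22.9%), 4 of them in 565 and 3 in 438, while 14 members had UMIs of a single gene. Most members thus had UMIs of several of the genes. The minimum of 5 UMIs favours this, and whether the genes occurred together beyond it was not tested.

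Levels are given as CPM, the UMIs of a gene per 1000000 UMIs summed over all cells of a group. Ptprt was at 496 CPM (484 to 508) in members, against 76.1 CPM (72.1 to 80.2) in other primed cells. Anks1b was at 243 CPM in members against 41.1 CPM in other primed cells, and Hdac9 at 243 CPM against 56.6 CPM. Ano3 was at 207 CPM in members against 37.8 CPM in other primed cells, and Hs3st4 at 117 CPM against 26.8 CPM. These differences follow from the rule and are given as a description. Naive-like cells, the 4672 kept cells with at least 12 UMIs per 10000 of the naive genes, had 68.0 CPM of Ptprt, 54.2 CPM of Hdac9 and 22.5 CPM of Hs3st4, so low levels lay outside the primed cells too. Fibroblast-like cells, the 438 kept cells with at least 10 collagen UMIs, had 195 CPM of Anks1b and 140 CPM of Ano3 but 42.6 CPM of Ptprt and 10.8 CPM of Hs3st4. The 72027 cell-free droplets, whose RNA comes from broken cells, held 132 CPM of Ptprt and 42.3 CPM of Hs3st4, against 76.1 CPM and 26.8 CPM in other primed cells. They also held 47.6 CPM of Esrrb and 523 CPM of Zfp42, of which other primed cells, chosen for low levels of both, had 4.17 CPM and 60.6 CPM. Relative to the droplets, other primed cells held more of Ptprt and Hs3st4 than of Esrrb and Zfp42. They were, however, also chosen for few UMIs of the long genes, Ptprt and Hs3st4 among them. The cut-offs for the long and the naive genes differ, so this order cannot separate RNA of the cells from free RNA. Whether other primed cells held Ptprt and Hs3st4 beyond free RNA was not tested.

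**Figure D1:**
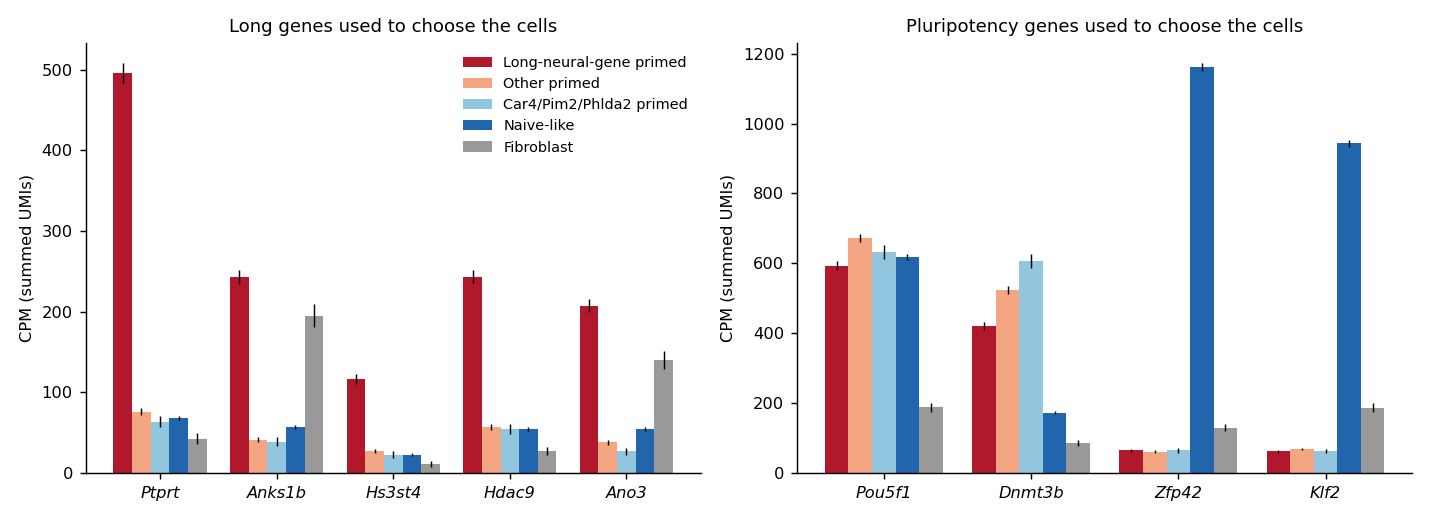
The CPM of the 5 long genes and of 4 pluripotency genes of the rule in members, other primed, Car4/Pim2/Phlda2 primed, naive-like and fibroblast-like cells, with each bar a sum over the cells of a group and lines for the 95% Poisson interval. The 5 long genes are higher in members by construction, Pou5f1 is at 593 CPM in members and 619 CPM in naive-like cells, and Zfp42 is at 65.3 CPM in members against 1161 CPM in naive-like cells.

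The rule itself asked for UMIs of Pou5f1 and Dnmt3b and for few of the naive genes, so their values describe the choice and are no check of the label. Pou5f1 was at 593 CPM in members and 672 CPM in other primed cells, and Dnmt3b at 421 CPM in members and 524 CPM in other primed cells. Naive-like cells had 172 CPM of Dnmt3b. Of 23 primed epiblast genes, Dnmt3b among them, 20 had at least 20 CPM in members or naive-like cells, and 13 were at least 1.5-fold higher, Dnmt3b included, and 2 lower in members. Such a difference, 1.5-fold with at least 20 CPM in the higher group, is how a gene is called higher or lower throughout, with 1 CPM added before the log2 ratio. Over all 7069 genes measured in that comparison, 12.2% were called higher and 6.85% lower in members. Fgf5, a signal of the primed epiblast that the rule did not use, was at 40.6 CPM in members against 8.80 CPM in naive-like cells. Lef1, a WNT effector of the primed state that the rule did not use either, was at 168 CPM in members against 75.3 CPM in naive-like cells. After each cell was thinned to 4000 UMIs, an Fgf5 UMI was found in 12.8% of members (22.2% before thinning) and in 17.0% of other primed cells (24.3% before thinning). Fibroblast-like cells, of which 20.1% were called doublets, gave 3.06%, a share to which free RNA and such doublets can both add. Zfp42 was found in 23.9% of members at that depth, close to the 20.2% of fibroblast-like cells, which do not use it, and in 95.2% of naive-like cells.

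The 5 long genes are called neural here, while markers of neural cells were mixed. Some that define young neurons and neuroectoderm were at or near 0. Of 16 neuron markers, 5 reached 20 CPM in members or other primed cells, and 2 were called higher in members and none lower. Over all 6860 genes measured in that comparison, 4.94% were called higher and 0.262% lower. The 16 summed to 290 CPM in members and 273 CPM in other primed cells. The 2 called were Map2 and Gap43, with spans of 267 kb and 92.2 kb. Of all genes of 100 to 300 kb, 10.8% were called higher, and of those of 30 to 100 kb, 3.06%. Map2, a dendrite protein, was at 26.8 CPM in members against 15.5 CPM in other primed cells, and Gap43, a growth cone protein, at 51.2 CPM against 33.7 CPM. Dcx, which defines migrating young neurons, was at 0.23 CPM in members and 0.28 CPM in other primed cells. Sst, a neuropeptide gene, had no UMI in members, which allows up to 0.232 CPM, and Tubb3, a neuronal tubulin, was at 19.5 CPM in members and 26.97 CPM in other primed cells. Nefl, a neurofilament protein, was at 28.8 CPM in members and 37.8 CPM in other primed cells. Neurod1, a proneural transcription factor that stands in neither list and was chosen after its values were seen, was called higher with 24.3 CPM in members against 9.06 CPM in other primed cells. Among 14 neuroectoderm genes, the early neural factors Sox1 and Pax6 were at 3.78 CPM and 2.32 CPM in members, against 3.23 CPM and 2.89 CPM in other primed cells. Nes, an intermediate filament of neural progenitors, was at 54.5 CPM in members against 37.0 CPM in other primed cells, under the 1.5-fold mark.

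Outside the rule, several of the genes that stood highest in members are long neural genes too. Against other primed cells, 339 of 6860 genes (4.94%) were called higher and 18 (0.262%) lower, with a median log2 ratio over all genes of 0.06. Against all 15333 other kept cells, 259 of 7007 genes (3.7%) were called higher and 241 (3.44%) lower. The 339 include the 5 long genes, and since the rule used this contrast, the counts describe the members and support nothing. Gria3, a subunit of AMPA glutamate receptors, was at 169 CPM (162 to 176) in members against 52.7 CPM (49.4 to 56.1) in other primed cells, a log2 ratio of 1.66. Grip1, a scaffold that binds these receptors, was at 713 CPM in members against 287 CPM in other primed cells, a log2 ratio of 1.31. In cells of 6000 to 12000 UMIs alone, whose medians were 8238 in members and 7538 in other primed cells, 390 genes were called higher and 41 lower, and the log2 ratio of Gria3 was 1.73. Adamtsl1, a secreted matrix protein, had the highest log2 ratio of the genes outside the rule with at least 50 CPM, at 1.85, with 75.9 CPM in members against 20.3 CPM in other primed cells.

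Transcription factors, adhesion molecules and channels followed. Nfia, a nuclear factor of glial and neural differentiation, was at 82.3 CPM in members against 27.6 CPM in other primed cells. Dscaml1, an adhesion molecule of neurites, was at 84.8 CPM in members against 29.8 CPM in other primed cells. Ank3, which anchors channels at the axon's initial segment, was at 160 CPM in members against 69.0 CPM in other primed cells. Kcnq5, a potassium channel subunit, was at 105 CPM in members against 47.3 CPM in other primed cells. The other highest genes were Plxdc2, a plexin-domain membrane protein, with 335 CPM in members against 143 CPM in other primed cells, and Tmtc3, Cyyr1, Samd12 and Mtus1, with log2 ratios of 1.22 to 1.29. In cells thinned to 4000 UMIs, a Gria3 UMI was found in 45.4% of members (64.3% before thinning) and in 16.9% of other primed cells (26.4% before thinning). Naive-like cells gave 10.1% for Gria3 at that depth, and fibroblast-like cells 45.7%. Fibroblast-like cells had 169 CPM of Gria3, about the level of the members, and more Nfia (150 CPM) and Ank3 (292 CPM). They had less than the members of Grip1 (106 CPM), Plxdc2 (184 CPM), Kcnq5 (63.1 CPM) and Dscaml1 (8.52 CPM). High levels of Gria3, Nfia and Ank3 were thus not particular to the members. A Grip1 UMI was found in 85.6% of members (95.4% before thinning) and in 59.6% of other primed cells (72.5% before thinning).

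**Figure D2:**
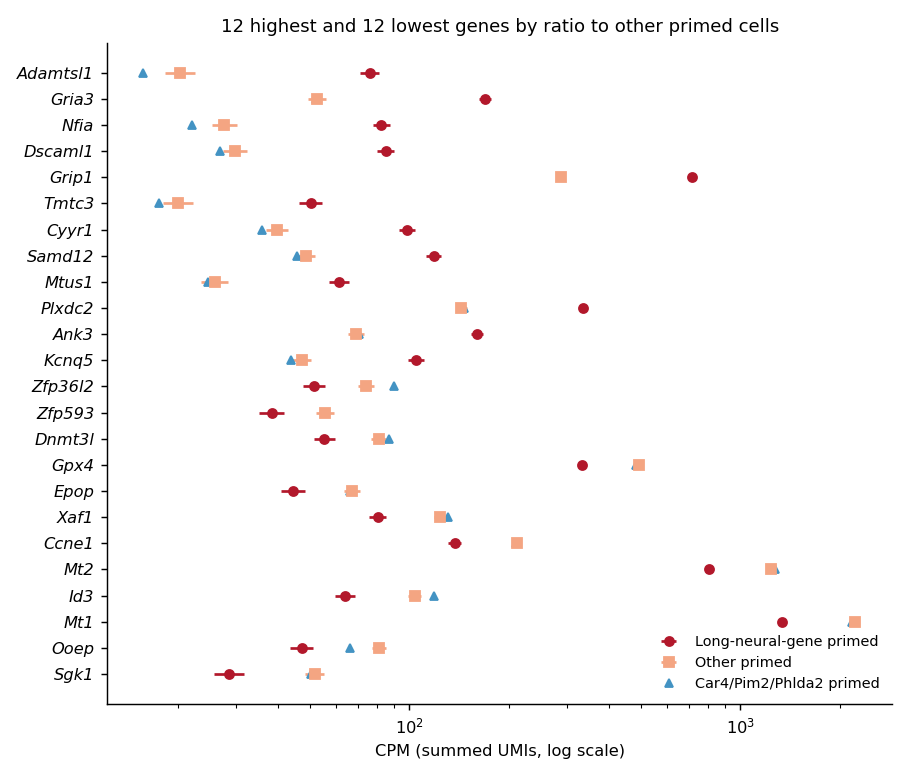
The CPM of the 12 highest and 12 lowest genes against other primed cells, on a logarithmic axis, with 1 point per group of cells for members, other primed cells and the Car4/Pim2/Phlda2 primed cells among them. In the upper genes, such as Gria3 with 169 CPM in members against 52.7 CPM in other primed cells, both primed reference groups sit together, left of the members.

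The ratios followed gene span across all genes measured, not in the neural genes alone. Against other primed cells, 118 of 262 genes with a span over 300 kb (45.0%) were called higher in members and none lower, and their median log2 ratio was 0.54. Among 937 genes of 100 to 300 kb, 10.8% were called higher, with a median of 0.32. The median was 0.14 for the 2219 genes of 30 to 100 kb, -0.03 for the 1989 genes of 10 to 30 kb, and -0.11 for the 1422 genes under 10 kb, of which 1.13% were called higher. The genes of the rule were left out of these bins. The genes over 300 kb gave 2.57% of UMIs in members and 1.74% in other primed cells.

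Across 6829 genes, Spearman's rho between span and log2 ratio was 0.63, given as a description since genes share the library and are not independent. With exonic length in place of span, rho was 0.51. The median span of genes called higher was 166 kb, and that of genes called lower 9.08 kb. Against the naive-like cells, the median log2 ratio of genes over 300 kb was 0.60 and rho was 0.29. The sources used here do not say whether intronic reads were counted. Mature and unspliced RNA of these genes therefore cannot be told apart, and nor can overlapping genes.

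**Figure D3:**
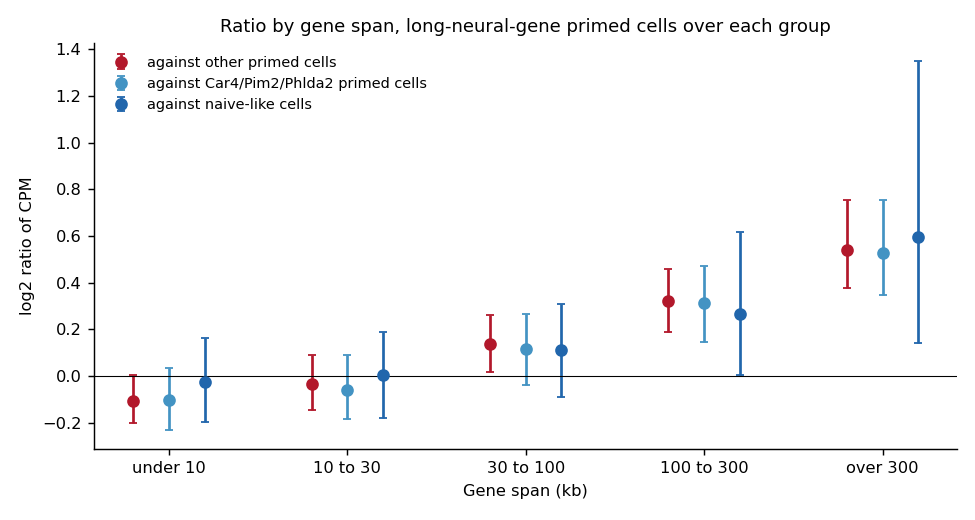
The median log2 ratio of CPM by gene span in kb, for members over other primed, Car4/Pim2/Phlda2 primed and naive-like cells, with bars for the quartiles over genes. The median against other primed cells is -0.11 under 10 kb and 0.54 over 300 kb.

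Among synaptic and adhesion genes, 17 of 52 listed genes reached 20 CPM, and 12 of these were called higher and none lower against other primed cells, with a median log2 ratio of 0.67. Of all genes measured 4.94% were called higher, and of those over 300 kb 45.0%, with a median of 0.54. Lrp1b, a large member of the LDL receptor family, was at 35.8 CPM in members against 11.9 CPM in other primed cells. Cadm2, a synaptic cell adhesion molecule, was at 21.6 CPM in members against 4.84 CPM in other primed cells. Tenm1, a teneurin of synaptic partner matching, was at 134 CPM in members against 83.8 CPM in other primed cells. Dlgap1, a postsynaptic scaffold, went the other way, with 45.6 CPM in members and 56.6 CPM in other primed cells, and was not called. Several genes at the core of synapse formation were scarcely present, such as Nlgn1 with 1.54 CPM in members and 0.61 CPM in other primed cells. Most of the measurable genes were thus called higher, and most of the list was below the minimum in both groups. The 52 genes summed to 1300 CPM in members, 894 CPM in other primed cells and 1418 CPM in fibroblast-like cells.

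Of 36 neuronal channel and receptor genes, 13 reached the minimum, and 8 were called higher and none lower, with a median log2 ratio of 0.68, beside the same 4.94% of all genes and 45.0% of genes over 300 kb. The AMPA receptor subunit Gria4 was at 114 CPM in members against 55.2 CPM in other primed cells, while Gria2 had no UMI in members and 0.06 CPM in other primed cells. Kcnq3, which forms channels with Kcnq5, was at 139 CPM in members against 65.0 CPM in other primed cells. Cacna1a, a calcium channel subunit, was at 68.7 CPM in members and 62.5 CPM in other primed cells. So only some members of each receptor family had measurable RNA, and those that did were not all higher. The 36 genes summed to 1080 CPM in members, 593 CPM in other primed cells and 624 CPM in fibroblast-like cells.

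Long genes with roles inside the cell were partly higher as well. Of 53 listed, 36 reached the minimum, and 15 were called higher and none lower, with a median log2 ratio of 0.54. That median is the same as the 0.54 of all genes over 300 kb, of which 45.0% were called higher. The 53 genes summed to 5402 CPM in members, 3858 CPM in other primed cells and 5629 CPM in fibroblast-like cells. Exoc4, a subunit of the exocyst, was at 730 CPM in members against 387 CPM in other primed cells. Magi2, a junctional scaffold, was at 140 CPM in members against 68.4 CPM in other primed cells, and Foxp2, a forkhead factor, at 32.2 CPM against 11.7 CPM. Fhit and Wwox, which span common fragile sites, were at 109 CPM and 182 CPM in members against 61.3 CPM and 108 CPM in other primed cells. Pde4d, a phosphodiesterase, was at 1084 CPM in members and 1047 CPM in other primed cells, and Nfib, a relative of Nfia, at 38.1 CPM and 37.4 CPM, so single long genes stood at the same level in both groups.

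The families of the chosen genes were mixed. Ptprt, Hs3st4 and Hdac9 are genes of the rule, so their calls in these families were fixed by the choice of cells. Of 8 measured receptor tyrosine phosphatases, Ptprt, Ptprm and Ptprd were called higher, and Ptprk was at 161 CPM in members against 113 CPM in other primed cells, under the mark. Of 10 measured enzymes of heparan sulfate, Hs3st4 and Hs6st3 were called higher, the second of them with 160 CPM in members against 89.5 CPM in other primed cells. Among 7 measured histone deacetylases, Hdac9 and Hdac8 were called higher, and Hdac4, of the same class as Hdac9, was at 65.7 CPM in members and 47.1 CPM in other primed cells. Ano6 was at 51.9 CPM in members and 41.6 CPM in other primed cells. The called genes outside the rule are long, with spans of 688 kb for Ptprm, 2271 kb for Ptprd, 731 kb for Hs6st3 and 221 kb for Hdac8. Of all genes measured 4.94% were called higher, of those over 300 kb 45.0%, and of those of 100 to 300 kb 10.8%.

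Several target genes of p53, whose spans in the list run from 3.02 to 43.4 kb, were higher in the same cells. All 14 listed targets were measured, and 5 were called higher and none lower against other primed cells, with a median log2 ratio of 0.41. Over all genes measured 4.94% were called higher, with a median of 0.06, and in the bins of span under 100 kb the share was between 1.13% and 3.06%. Mdm2, the ligase that degrades p53, was at 430 CPM (419 to 441) in members against 196 CPM (189 to 202) in other primed cells. Its span is 21.9 kb and its log2 ratio was 1.13. Trp53inp1, a p53-induced nuclear protein, was at 247 CPM in members against 131 CPM in other primed cells. Btg2, an antiproliferative gene, was at 159 CPM in members against 83.9 CPM in other primed cells. Perp, a membrane protein of p53-dependent cell death, was at 76.5 CPM in members against 40.2 CPM in other primed cells, and Eda2r, a receptor of the TNF family, at 142 CPM against 78.7 CPM.

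The other p53 targets differed less. Cdkn1a (p21), the cell cycle inhibitor, was at 187 CPM in members and 147 CPM in other primed cells, with a log2 ratio of 0.34. Ccng1 (cyclin G1) was at 235 CPM in members and 171 CPM in other primed cells. The cell death genes Bbc3 (Puma) and Pmaip1 (Noxa) were at 80.5 CPM and 89.0 CPM in members, against 68.0 CPM and 76.0 CPM in other primed cells. Bax was lower in members at 739 CPM, against 809 CPM in other primed cells, and was not called. In cells thinned to 4000 UMIs, an Mdm2 UMI was found in 71.0% of members (85.3% before thinning) and in 45.5% of other primed cells (59.3% before thinning). Fibroblast-like cells had 495 CPM of Mdm2 and 880 CPM of Cdkn1a. Their 13 markers summed to 80.3 CPM in members and 100.4 CPM in other primed cells, against 9086 CPM in the fibroblast-like cells themselves.

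The Mdm2 promoter is shown as that of the leading target. Its window lies at chr10:117710709-117711008 on the minus strand (RefSeq, GRCm38.p6), and capitals mark its single match to the p53 consensus decamer, GAACTTGCCT, at bases 65 to 74 of the window.
Mdm2: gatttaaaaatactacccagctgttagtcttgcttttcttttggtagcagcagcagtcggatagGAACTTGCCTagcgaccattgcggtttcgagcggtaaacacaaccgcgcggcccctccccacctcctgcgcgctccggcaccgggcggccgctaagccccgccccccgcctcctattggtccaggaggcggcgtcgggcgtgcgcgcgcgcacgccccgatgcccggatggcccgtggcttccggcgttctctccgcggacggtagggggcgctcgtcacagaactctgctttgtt
The consensus is its own reverse complement, so 1 search covers both strands, and 8.36% of all promoter windows hold a match to it. Among the p53 targets, 10 of 14 genes had a window in the table, too few for a comparison of the list with all promoters. A match is a description of the letters and not a site in use.

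**Figure D4:**
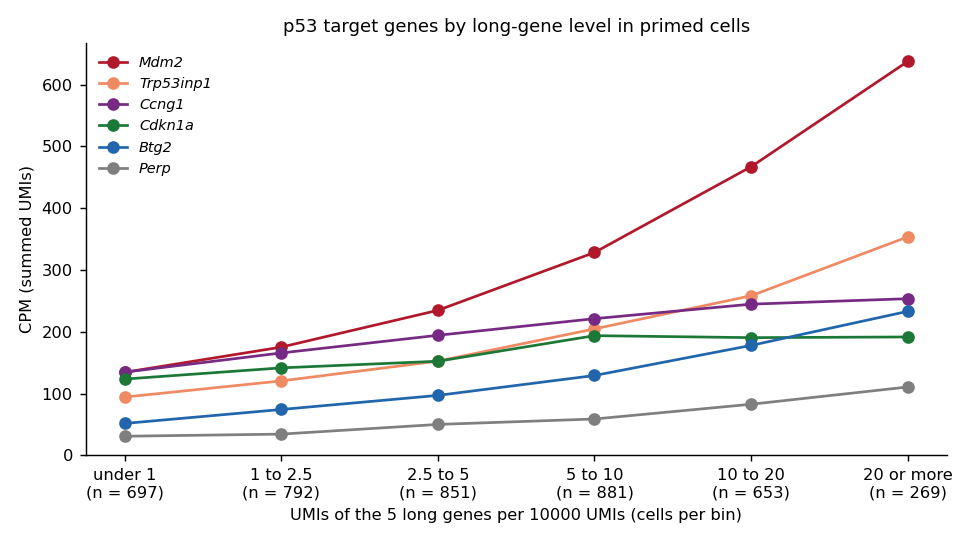
CPM of 6 p53 targets in all cells that met every condition but that on the 5 long genes, by UMIs of the 5 long genes per 10000, with each point a sum over the cells of a bin. Mdm2 is at 134 CPM in the lowest bin and 638 CPM in the highest, while Cdkn1a is between 123 CPM and 194 CPM throughout.

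The summed level of the p53 targets followed that of the 5 long genes over its whole range, though some single targets did not. In the 4143 cells that met the other conditions, the summed CPM of the 14 targets was 1810 where the 5 long genes gave under 1 UMI per 10000. It was 2063 at 1 to 2.5, 2318 at 2.5 to 5, 2565 at 5 to 10, 2929 at 10 to 20, and 3230 at 20 or more. Mdm2 in the same bins was at 134, 175, 235, 328, 467 and 638 CPM. Cdkn1a reached 194 CPM at 5 to 10 UMIs per 10000 and was at 192 CPM in the highest bin. Bax, the most abundant of the targets, was at 789 CPM in the lowest bin, 831 CPM at 2.5 to 5 and 640 CPM in the highest. Phlda3, a repressor of AKT signalling, was at 164 CPM at 10 to 20 and 147 CPM in the highest bin. The median depth of the bins was between 6200 and 7291 UMIs, so the bins were of similar depth. Within the members, Spearman's rho between the level of the 5 long genes and that of the p53 targets was 0.30 over 1508 cells, a description over cells that share a library. The level of the 5 long genes also had a rho of -0.35 with total UMIs in members. Both levels are divided by that total, so the part of depth in the 0.30 cannot be told apart. At the threshold itself, Mdm2 was at 284 CPM in the 265 members with exactly 5 UMIs of the long genes, against 256 CPM in the 305 cells with 4. Mdm2 was at 246 CPM in the cells with 3 and 322 CPM in those with 6, so for Mdm2 the rule cuts through a gradual change. Gria3 was at 76.2, 74.2, 108 and 118 CPM in the cells with 3, 4, 5 and 6, with its largest step at the threshold.

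RNA that stays in the nucleus was partly higher. Malat1, an abundant nuclear noncoding RNA, was at 8916 CPM in members against 5915 CPM in other primed cells, and Neat1, the RNA of paraspeckles, at 61.3 CPM against 40.3 CPM. Of 15 measured nuclear and noncoding RNAs, these 2 were called higher and none lower, beside 4.94% higher and 0.262% lower of all genes measured. Kcnq1ot1 was at 354 CPM in members and 249 CPM in other primed cells. Xist, the RNA of the inactive X chromosome, went the other way with 218 CPM in members and 298 CPM in other primed cells, under the mark. Over the bins of the 5 long genes, Malat1 was at 5208 CPM in the lowest and 12111 CPM in the highest. The mitochondrial share was 3.60% in the highest bin and 3.01% in the lowest. Xist in the same bins was at 335, 309, 292, 242, 162 and 215 CPM. From the lowest bin to the highest, Malat1 and the mitochondrial share thus rose, while Xist fell up to 10 to 20 per 10000. Their part in the results was not tested.

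Genes lower in members were mostly short and came from several processes. The metal-binding metallothioneins Mt1 and Mt2 were at 1331 CPM and 801 CPM in members, against 2223 CPM and 1233 CPM in other primed cells. Ccne1 (cyclin E1), which drives entry into S phase, was at 137 CPM in members against 211 CPM in other primed cells. Id3, a target of BMP signals, was at 63.8 CPM in members against 104 CPM in other primed cells. Sgk1, a kinase of the stress and glucocorticoid response, was at 28.5 CPM in members against 51.7 CPM in other primed cells. Ooep, an oocyte and early embryo gene, was at 47.4 CPM in members against 81.0 CPM in other primed cells. Dnmt3l, a cofactor of the de novo methyltransferases, was at 55.4 CPM in members against 80.7 CPM in other primed cells. Its log2 ratio of -0.54 was under the 1.5-fold mark. Gpx4, which repairs oxidised lipids, was at 332 CPM in members against 493 CPM in other primed cells, also under the mark. The remaining genes of the lowest 12, Xaf1, Epop, Zfp593 and Zfp36l2, had log2 ratios between -0.61 and -0.51, so not all were called. Eif1ad10, of a multicopy family whose reads counting can split, was at 2.86 CPM in members against 22.6 CPM in other primed cells.

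Pluripotency, cell cycle and metabolic lists showed no broad difference of 1.5-fold. Of 16 core pluripotency genes none was called, and their median log2 ratio was -0.21. None of 21 measured primed epiblast genes was called, with a median of -0.12, and Fgf5 was at 40.6 CPM in members and 53.6 CPM in other primed cells. None of 7 measured naive genes was called. Members and other primed cells met the same conditions on Zfp42, Klf2, Esrrb and Nr5a2, and on Pou5f1 and Dnmt3b. For these genes the lack of a call is partly fixed by that choice. Of 30 S phase genes, Ccne1 alone was called lower, with a median of -0.19, and none of 30 G2/M genes was called, with a median of 0.15. All 16 measured genes of glycolysis and hypoxia had a log2 ratio below 0, with a median of -0.27, and none was called. The hypoxia target Egln3 was at 27.03 CPM in members and 39.1 CPM in other primed cells, and Ldha, which makes lactate, at 843 CPM and 1037 CPM. Mitochondrially encoded genes had a median of 0.13 and cytosolic ribosomal proteins of -0.05. Among signalling genes, the streak ligand Wnt3 was called higher with 25.7 CPM in members against 13.7 CPM in other primed cells, and so was the cadherin gene Cdh3 with 28.6 CPM against 14.6 CPM.

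**Figure D5:**
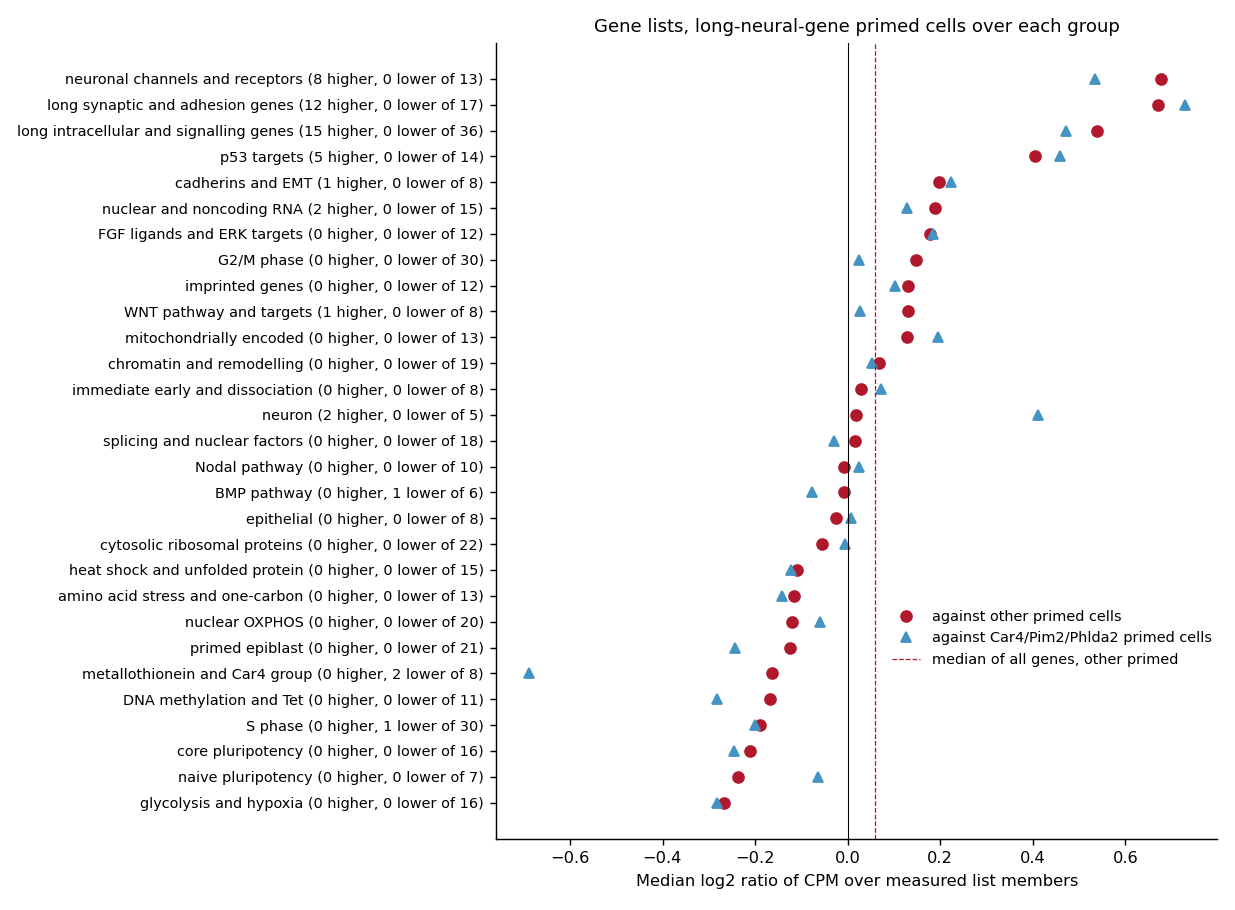
Median log2 ratio of CPM over the measured genes of each list, members over other primed cells (circles) and over Car4/Pim2/Phlda2 primed cells (triangles), with the number called against other primed cells in each label. The 3 lists of long neural and signalling genes and the p53 targets lie at 0.41 to 0.68 against other primed cells, right of the median of all genes at 0.06.

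A second primed state of the library was the nearest to compare. Among other primed cells, 698 had at least 5 UMIs of Car4, a carbonic anhydrase, Pim2, a survival kinase, and Phlda2, an imprinted growth regulator. Their median depth was 7739 UMIs, close to the 7953 of the members. Against them, 421 of 6884 genes (6.12%) were called higher and 40 (0.581%) lower in members. Gria3 was at 169 CPM in members against 52.1 CPM in the Car4 cells, and Mdm2 at 430 CPM against 181 CPM. Of the p53 targets 5 were called higher and none lower, with a median log2 ratio of 0.46, and 114 of 262 genes over 300 kb (43.5%) were called higher and none lower. Pim2 was at 330 CPM in members against 669 CPM in the Car4 cells, Car4 at 83.8 CPM against 159 CPM, and Phlda2 at 37.3 CPM against 74.2 CPM, as the choice of those cells fixes. Members still had more Pim2 and Car4 than naive-like cells, which were at 49.0 CPM and 14.1 CPM. Dnmt3b was at 421 CPM in members and 607 CPM in the Car4 cells, and Lef1 at 168 CPM and 223 CPM. Of 21 measured primed epiblast genes, 4 were called lower and none higher in members, and Car4 and Pim2 themselves stand in that list.

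A similar long-gene pattern was seen among the cells chosen as naive-like. Splitting naive-like cells in the same way, which was chosen after the values above were seen, gave 541 cells with at least 5 UMIs of the 5 long genes and 4131 with fewer. Their median depths were 9570 UMIs and 6562 UMIs. Scrublet called 12.8% of all naive-like cells doublets, and these were left in. The share of doublets in each part of the split was not determined, and their part in its values was not tested. Of 6832 genes, 377 (5.52%) were called higher and 14 (0.205%) lower in the first of these groups, and rho between span and ratio was 0.57. Of the p53 targets 7 of 14 were called higher, and Mdm2 was at 293 CPM in the cells with 5 or more against 137 CPM in those with fewer. Gria3 was at 86.0 CPM against 22.0 CPM, and Nfia at 47.7 CPM against 11.4 CPM. Mt1 was at 1212 CPM in the cells with 5 or more against 2011 CPM in those with fewer, the same direction as in primed cells. Xist, in contrast, was at 112 CPM in the cells with 5 or more against 60.4 CPM in those with fewer, the opposite of its order in primed cells.

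Caudal cells, with at least 4 UMIs of Meis2 and Fgf8, showed the split as well. They met the members' conditions on the naive genes, on Pou5f1 and Dnmt3b, on Krt8 and Krt18, and on Mixl1, Mesp1, Lhx1 and Rspo3. By those conditions they are primed too. Scrublet called 12.7% of them doublets, and these were left in. There 156 cells had at least 5 UMIs of the 5 long genes and 512 fewer, with median depths of 10225 UMIs and 6976 UMIs. Of 7075 genes, 474 (6.70%) were called higher and 64 (0.905%) lower. The rho between span and ratio was 0.41, against 0.63 for members over other primed cells. Of the 14 p53 targets, 11 were called higher and none lower. Mdm2 was at 204 CPM in the cells with 5 or more against 96.4 CPM in those with fewer, and Cdkn1a at 250 CPM against 129 CPM. Mt1 was at 481 CPM in the cells with 5 or more and 389 CPM in those with fewer, the opposite of its order between members and other primed cells. Whether the naive-like and caudal splits differ from that between members and other primed cells was not tested. The deeper cells of both splits cannot be told apart from the choice by UMIs.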

How the data were processed

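The authors deposited raw UMI counts per feature and barcode in 1 matrix of 2578653 barcodes, 33696 genes and 12 tag oligos, which per the file headers came from Cell Ranger 8.0.1. The deposited tag table gives a call and the log10 tag count of each called cell, and 7 of its columns, a row number among them, were not used. The sources used here give no genome build, annotation, strand or intron setting.

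The members, the 44 gene lists and the settings were chosen with earlier results of these data known. UMIs were summed over each group's cells and scaled to CPM with exact Poisson intervals, shares have exact binomial intervals, and log2 ratios used a pseudocount of 1 CPM. With 1 pooled library no test was run. Genes named are the genes of the rule, the 12 highest and 12 lowest against other primed cells with at least 50 CPM, leaving out provisional, mitochondrial and ribosomal names, up to 4 per list with a called gene, and the 5 highest and 5 lowest against the Car4 cells. Members named beside list counts, the Mdm2 promoter and the p53 decamer were chosen after their values were seen. Some genes of the lists are not reported here. Of the genes called higher, 75.2% had a promoter in the table, under 80%, so the motif comparison was void. Of 33696 genes, 26 symbols stand on 2 rows each, and the row with more UMIs was used. Spans are from GENCODE vM21 and covered 99.7% of measured genes. Calculations used Python 3.11.15, numpy 2.4.6, scipy 1.17.1, pandas 2.3.3 and scanpy 1.11.5, whose Scrublet was run at an expected doublet rate of 0.1. The calling rule was tested on simulated data. Upper limits at a count of 0 stand for 3 counts. Droplets taken as cell-free held 150 to 300 UMIs and were not called.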

Additional observations from a re-analysis of the deposited data

Results flagged for a closer look

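The cell tags were used in no comparison. The median count of tag CMO312 was 501 in members and 532 in other primed cells, above the 478 that 90% of cell-free droplets stayed under. For tag CMO311 the median was 960.5 in members and 849 in other primed cells, under the 1228 of the same limit. Of the 1508 members, 2 were called CMO311, 0 CMO312 and 1506 were left unassigned, so the tags gave no split of the members by sample. These values come from 1 library and were not tested.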

How the results depend on the processing

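No paired analysis was possible because the labels tie no cell to a sample and the result comes from no test. The share of kept cells that were members was 8.95% as reported. It was 7.74% under the lenient cell filter (500 genes, 20% mitochondrial) and 10.4% under the strict one (2000 genes, 5%). It was 10.8% with at least 4 UMIs of the 5 long genes, 5.26% with 8, 10.7% with a condition per 10000 UMIs, 6.31% with naive genes under 2 per 10000 and 12.5% among cells of 6000 to 12000 UMIs. Leaving 1 gene out of the sum gave 5.74% without Ptprt, 7.47% without Anks1b, 8.12% without Hs3st4, 7.27% without Hdac9 and 7.61% without Ano3.

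Against other primed cells, Spearman's coefficient between span and ratio was 0.63, and 0.61 at 8 UMIs or per 10000 UMIs and 0.57 in the depth window. Against all other kept cells, where 259 genes were called higher and 241 lower, the coefficient was 0.39. It was 0.30 under the lenient filter, 0.42 under the strict one, 0.35 at 4 UMIs, 0.45 at 8 UMIs and without Ptprt, 0.37 per 10000 UMIs, 0.41 without Anks1b or Ano3, and 0.43 without Hdac9. The 18 genes called lower against other primed cells became 34 at 8 UMIs, 33 per 10000 UMIs and 41 in the depth window. With no CPM minimum the calls were 1054 higher and 235 lower against other primed cells, and 751 and 1165 against all other kept cells. At a minimum of 100 CPM they were 66 and 5, and 67 and 50, and at a fold of 2 they were 63 and 1, and 57 and 110. Of the p53 targets, 5 were called higher under 17 of the 19 alternatives, 4 at 100 CPM and 1 at a fold of 2. Thinned to 2000 in place of 4000 UMIs, the share of members with a UMI was 51.7% for Mdm2, 28.1% for Gria3 and 8.09% for Fgf5. Over 73 named genes and 16 settings, 1077 of 1168 values stayed within their counting interval and 91 moved outside it. No gene that differed by 1.5-fold or more as reported changed direction. For the other named genes a change of direction was not counted. The cause of these moves was not tested. The number of cells and UMIs limits precision, and with 1 library no spread between samples is known.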
